A study of Mus musculus with 4 samples.

Results

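Eos, encoded by Ikzf4, is a zinc finger transcription factor of the Ikaros family that works in regulatory T cells (Treg cells). The regions described here are the anti-Eos peaks of chromatin immunoprecipitation with sequencing (ChIP-seq) that fell inside genes and had no anti-Helios peak summit at the same place. Members were chosen by their presence in the anti-Eos peak list of wild-type cells, by the absence of an anti-Helios summit within 100 bp of their own summit, and by a summit that lay inside a protein-coding gene and more than 1 kb from every start or end of a protein-coding gene, on chromosomes 1 to 19, X and Y. Of 1106 anti-Eos peaks, 296 met this rule (26.8%, 95% Wilson interval 24.2 to 29.4). They are called Eos-only peaks inside genes below. The other Eos-only peaks lay near gene ends (304) or outside protein-coding genes (239). A further 79 anti-Eos peaks inside genes had an anti-Helios summit within 100 bp and are called coinciding peaks inside genes.

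The study isolated splenic Treg cells with a CD4+CD25+ kit from wild-type mice and from Eos-flox x Foxp3-Cre mice, in which Cre acts in cells that express Foxp3, and immunoprecipitated each with anti-Eos (clone 18H2) or anti-Helios (D8W4X). Each of the 4 groups was 1 library, and only the wild-type anti-Eos and anti-Helios peak lists entered the results; the knockout libraries were not analysed here. Cells were fixed for 10 min in 1% formaldehyde, and 6 µg of antibody went into each immunoprecipitation. The age, sex and strain of the mice, and whether cells of several mice were pooled, were not stated in the labels. A CD4+CD25+ isolation enriches Treg cells but can also hold activated conventional CD4 T cells. No group has a replicate, so every interval below covers counting error only and describes these libraries. Coordinates are those of GRCm38 (mm10), and exons and introns were not assigned.

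Ikaros family proteins bind DNA through a cluster of zinc fingers that recognises a GGGAA core, and they associate with one another and with corepressor and remodelling complexes. Eos is known as a partner of Foxp3 in gene silencing in Treg cells, and Helios (Ikzf2) is a close relative that these cells also express. Binding sites inside genes can belong to enhancers or silencers located in introns, or to promoters of shorter transcripts that start inside a longer gene. A peak inside a gene therefore does not by itself name the gene that it acts on.

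All values attached to a peak are the authors' own. Fold is the enrichment at the summit over the background used by the peak caller, and neither that caller nor its control library is given in the sources used here. Where a knockout library served as that control, fold would compare the genotypes. The smallest deposited -log10 q was 2.08 in the anti-Eos list and 2.24 in the anti-Helios list, so an Eos-only peak is a place where no anti-Helios summit was listed, and weaker anti-Helios signal below the threshold was not listed.

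The label of the regions as gene bodies was compared with the annotation of transcription starts. The RefSeq start table of GRCm38.p6 gives several starts for many genes, each with a 300 bp window from 250 bp before to 50 bp after the start. Of the 296 peaks, 294 lay on a chromosome with any start in that table. The table lacks some genes, and it gave a strand for 211 of the 265 genes that hold these peaks. Starts inside the other genes may be missing, so the counts below may be too low. The summit lay in such a window for 23 (7.82%, 5.27 to 11.5) and within 1 kb of an annotated start for 45 (15.3%, 11.6 to 19.9). The rule allows 988 Mb of gene length, 956 Mb of it on chromosomes with known starts, and of the latter the windows cover 0.194% and the 1 kb neighbourhoods 1.30%. Of the 23, 20 lay at a further start of the gene that holds the peak and 3 at the start of a long non-coding RNA (Slc36a3os inside Slc36a3, G430095P16Rik inside Nfix and Gm51953 inside Mideas). The summit was upstream of the start in 14 and at or after it in 9, and it was within 100 bp of it in 19. The count of 23 became 14 when peaks within 5 kb of a protein-coding gene end were left out, and 15 when those within 1 kb of an end of any annotated gene were.

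The sequences of 7 of these sites are shown. They were picked among the peaks whose summit lies upstream of the start and whose part upstream of it holds GGGAA or TGTGGT, both counted below. G430095P16Rik inside Nfix (TGTGGT centred 33.5 bp from the summit) and Gm51953 inside Mideas (GGGAA at 79 bp) also meet this and are not shown. Each sequence shown is the part of the peak that lies upstream of the start within the RefSeq window, on the strand of the transcript, 5′ to 3′, on GRCm38.p6. Capitals mark GGGAA, the core known for the Ikaros family, or TGTGGT, the core known for Runx factors, on either strand (read on the other strand, the former is TTCCC and the latter is written ACCACA).
Gpr132 (chr12:112860917-112861056, minus strand, fold 11.3, summit at base 102): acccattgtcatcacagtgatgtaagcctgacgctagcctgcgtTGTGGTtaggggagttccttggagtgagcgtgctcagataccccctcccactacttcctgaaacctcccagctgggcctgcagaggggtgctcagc
Slc36a3os (chr11:55136764-55136993, plus strand, fold 10.4, summit at base 178): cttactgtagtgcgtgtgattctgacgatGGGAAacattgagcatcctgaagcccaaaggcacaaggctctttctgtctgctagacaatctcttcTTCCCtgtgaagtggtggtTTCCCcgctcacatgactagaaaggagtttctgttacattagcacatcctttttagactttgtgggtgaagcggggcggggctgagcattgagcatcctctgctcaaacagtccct
Cipc (chr12:86947126-86947330, plus strand, fold 9.60, summit at base 102): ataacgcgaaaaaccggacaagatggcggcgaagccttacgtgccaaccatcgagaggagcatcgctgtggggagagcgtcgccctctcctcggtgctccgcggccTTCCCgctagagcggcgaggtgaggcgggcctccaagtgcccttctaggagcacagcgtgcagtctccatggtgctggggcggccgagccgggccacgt
Dock11 (chrX:35888582-35888698, plus strand, fold 7.86, summit at base 34): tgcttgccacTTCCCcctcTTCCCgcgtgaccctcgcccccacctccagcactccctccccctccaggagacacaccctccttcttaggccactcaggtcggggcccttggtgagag
Ptpn22 (chr3:103860071-103860276, plus strand, fold 7.56, summit at base 42): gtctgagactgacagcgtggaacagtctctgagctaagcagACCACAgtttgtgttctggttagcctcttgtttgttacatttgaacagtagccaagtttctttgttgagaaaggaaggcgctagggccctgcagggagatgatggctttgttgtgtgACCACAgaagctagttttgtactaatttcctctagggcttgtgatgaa
Lax1 (chr1:133690109-133690230, minus strand, fold 7.27, summit at base 92): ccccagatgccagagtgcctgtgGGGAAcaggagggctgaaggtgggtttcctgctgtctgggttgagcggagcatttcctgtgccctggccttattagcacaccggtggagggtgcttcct
Shisa5 (chr9:109052731-109052853, plus strand, fold 6.57, summit at base 41): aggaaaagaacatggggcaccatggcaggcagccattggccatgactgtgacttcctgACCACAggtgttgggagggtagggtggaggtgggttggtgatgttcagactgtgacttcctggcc

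In the sequences above, a GGGAA core was centred 7 bp from the summit in Cipc and 12 bp from it in Dock11, and 61 bp from it in Slc36a3os, whose stretch holds 3 such cores. A TGTGGT core was centred 2.5 bp from the summit in Ptpn22, which encodes a phosphatase that dampens T cell receptor signalling, and 20.5 bp from it in Shisa5. In Gpr132, a G protein-coupled receptor of lymphocytes, the nearest TGTGGT was 54.5 bp away and the window held no GGGAA. Lax1, a membrane adaptor that restrains lymphocyte signalling, held 1 GGGAA at 66 bp. The cores thus lay at varied distances, and a match is a description of letters, not of a bound site.

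Motifs could be counted only in the 300 bp windows of the 23 peaks at starts, since no genome sequence was used here. GGGAA was present on either strand in 15 of the 23 windows (65.2%), against 77.5% of the 236 windows that held the summit of another anti-Eos peak and 62.7% of all 32851 windows. TGTGGT was present in 10 of 23 (43.5%, 25.6 to 63.2), against 14.8% of the other anti-Eos windows and 16.8% of all windows. The difference from the other anti-Eos windows was 28.6 percentage points (Newcombe interval 10.1 to 48.8). The 10 windows were those of Rarg, Gpr132, Ptpn22, Lax1, G430095P16Rik, Atxn7l1, Srgn, Shisa5, Itpa and Akna. A window is not the peak itself. In Lax1, Rarg, Itpa, Akna and Srgn, TGTGGT lay outside the part of the peak upstream of the start. It was centred 98.5, 143.5, 149.5, 193.5 and 226.5 bp from their summits. The nearest GGGAA of a window lay as far as 242 bp from the summit, in Insig2. CANNTG, the E-box letters, was present in 87.0% against 57.2% of the other anti-Eos windows and 72.3% of all windows, a difference of 29.8 points (9.70 to 40.4). GGAAG, a core known for ETS factors that shares GGAA with GGGAA, stood at 87.0%, 90.3% and 71.4%. The other 4 of the 8 motifs counted (TGANTCA known for AP-1, AGATAA known for GATA factors, CTTTGA known for TCF and LEF factors and TGTTTAC known for forkhead factors) were present in 4.35% to 8.70% of the windows of Eos-only peaks inside genes, and their differences had intervals that include 0. The intervals are not adjusted for the 8 motifs. The windows also differed in base composition, with a median GC content of 57.7% for the 23, 61.0% for the other anti-Eos windows and 52.7% for all, and its part in the motif counts was not tested.

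**Figure D1:**
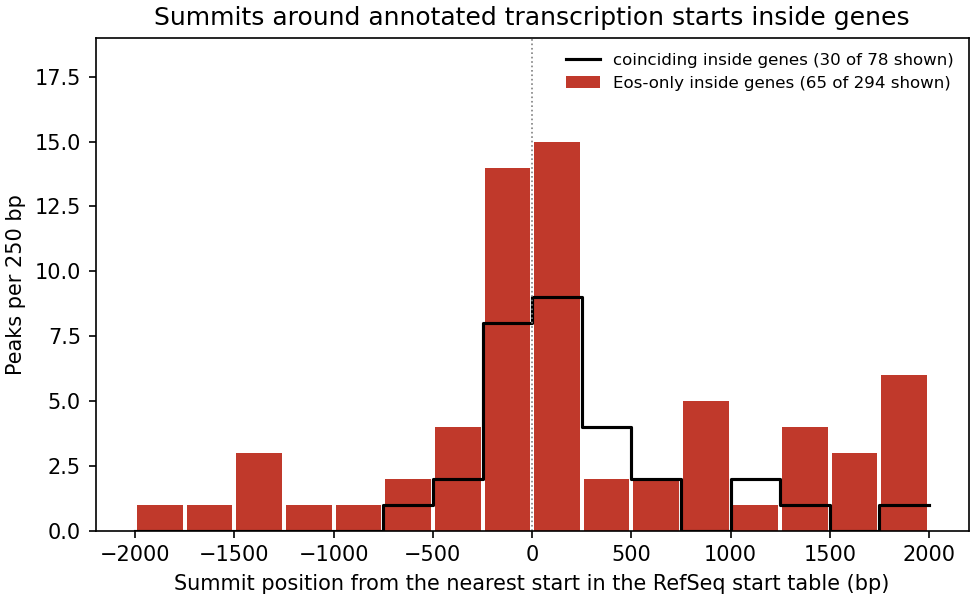
Number of summits per 250 bp (vertical axis) by position relative to the nearest start of the RefSeq start table in bp (horizontal axis, negative upstream), for Eos-only peaks inside genes (red bars, 65 of 294 within the plotted range) and coinciding peaks inside genes (black line, 30 of 78). Both pile up in the bins on either side of 0, where the red bars reach 14 and 15 peaks.

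Coinciding peaks inside genes lay closer to internal starts. Of 78 on chromosomes with starts in the table, 26 (33.3%) had their summit within 1 kb of an annotated start. That was 18.0 percentage points more than the Eos-only peaks inside genes (Newcombe interval of the members minus the coinciding peaks -29.6 to -7.52). For the start windows themselves the shares were 12.8% and 7.82%, and the interval of that difference, -14.5 to 1.77 points, includes 0. Within the Eos-only peaks inside genes, the 23 in a start window had folds of 4.63 to 12.3 with a median of 7.26. The other 271 on chromosomes with starts in the table had a median of 6.85. Ends of non-coding genes were a further neighbour: 30 of the 296 summits (10.1%, 7.19 to 14.1) lay within 1 kb of one, while 2.18% of the allowed gene length does. Of these 30 the nearest non-coding gene was a long non-coding RNA for 23, a small nuclear RNA for 4, a microRNA for 2 and a pseudogene for 1.

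Along the gene, the peaks were spread over the whole length. The strand was known for the genes of 236 peaks, and dividing each gene into 5 equal parts from its start gave 56, 47, 60, 44 and 29 peaks. Part 1, next to the start, held 23.7% (18.7 to 29.6) against 18.1% for an even spread over the length that the rule allows, and part 5, at the far end, held 12.3% (8.69 to 17.1) against 18.1%. Within 5 kb of the gene start lay 42 peaks (17.8%, against 12% for an even spread). Of the 65 coinciding peaks inside genes with strand known, 36.9% lay within 5 kb of the start, where an even spread over their genes gives 15.8%. Without the peaks in start windows, part 1 held 21.6% (16.6 to 27.6) against 18.2%, an interval that includes the even-spread share. With more than 2 kb kept from gene ends it held 18.6% against 16.4%, and with more than 5 kb 13.9% against 13.7%, so that the share in part 1 was then near that of an even spread. The median distance from a summit to the nearest end of a protein-coding gene was 13.9 kb, and 122 of the 296 (41.2%) were within 10 kb of one.

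The folds were a description of how the members were chosen and are given with no test. Members ranged from 1.99 to 14.4 with a median of 6.88 (interquartile range 5.87 to 8.20), and 18 reached 10. The median was 7.20 for Eos-only peaks near gene ends, 6.98 for those outside genes and 8.23 for coinciding peaks inside genes, whose highest fold was 27.9. A fold of at least 8 was reached by 26.4% of the members, 36.8% of the Eos-only peaks near gene ends, 34.3% of those outside genes and 53.2% of the coinciding peaks inside genes. In the ranking of all 1106 anti-Eos peaks, 0 of the 15 highest and 7 of the 100 highest were Eos-only peaks inside genes.

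**Figure D2:**
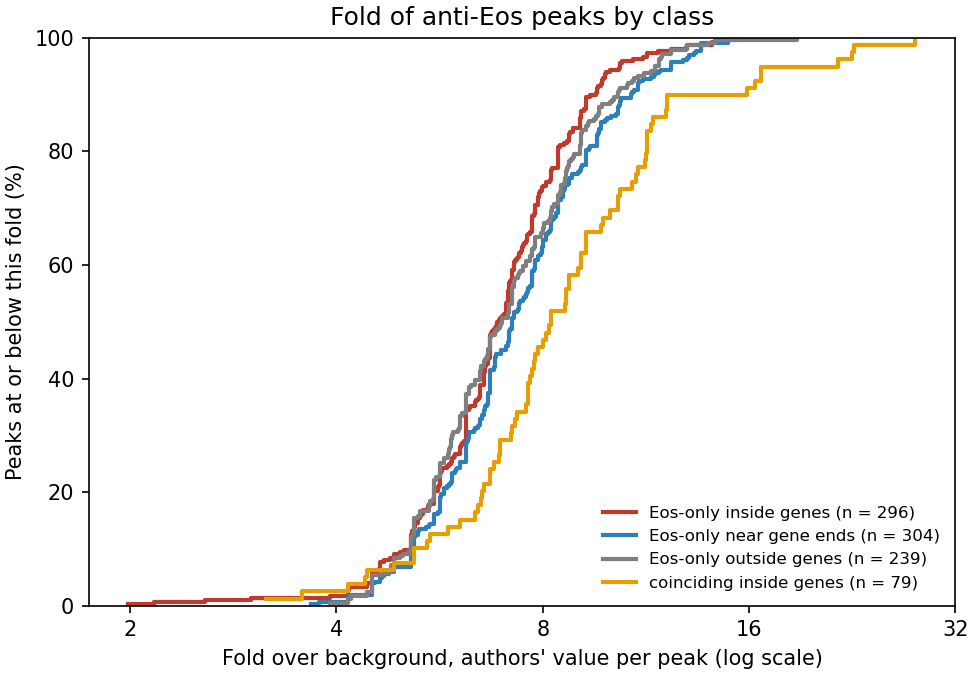
Cumulative share of peaks in % (vertical axis) at or below a given fold over background (horizontal axis, log scale), for the 296 Eos-only peaks inside genes (red), 304 near gene ends (blue), 239 outside genes (grey) and 79 coinciding peaks inside genes (orange). The 3 Eos-only curves lie close together, with the red one leftmost above a fold of about 8, and the orange one lies to their right.

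The depth behind these folds was small. The peak lists give no read totals, so depth is known per peak only. From each peak's fold and p-value, a whole number of fragments at the summit and a local background could be recovered for all 1106 anti-Eos peaks (relative tolerance 0.0001), which is an inference from the values. Members rested on a median of 12 fragments at the summit (range 8 to 69), coinciding peaks inside genes on 18. The local background of a typical member was 0.943 fragments. This was the most frequent value among the anti-Eos peaks and was taken as 1 control fragment after scaling, an assumption, since the control library is not known. For 66 members (22.3%) the summit held 10 fragments or fewer, so that an order of single members by fold is imprecise. A count of 12 fragments, as at Fyn, has an exact 95% Poisson interval of 6.20 to 21.0, and the 27 fragments at Itgb3, the member with the highest fold, have one of 17.8 to 39.3.

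**Figure D3:**
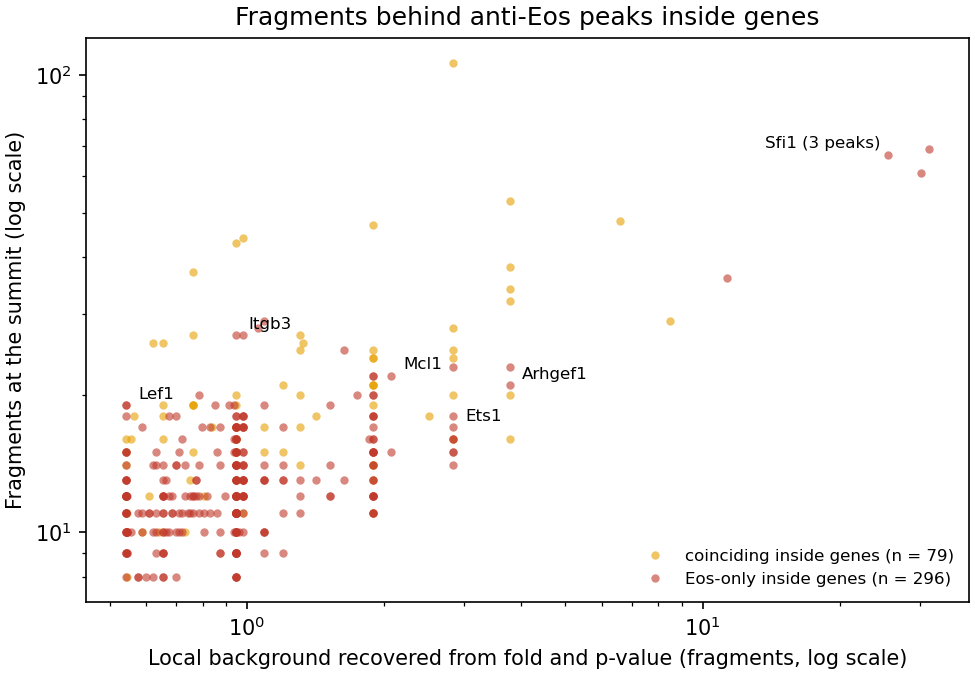
Fragments at the summit (vertical axis, log scale) against local background (horizontal axis, fragments, log scale), both solved from the authors' fold and p-value, for the 296 Eos-only peaks inside genes (red) and the 79 coinciding peaks inside genes (orange). Of the members, 224 had a local background under 1 fragment, and the 3 peaks in Sfi1 stand apart at a background of 25.5 to 31.4.

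The members with the highest folds lay in genes of varied function. The highest was in Itgb3, the integrin beta 3 chain (chromosome 11, 104661086 to 104661404, fold 14.4, 27 fragments), with the nearest anti-Helios summit 1486 kb away. Next came Mob3a, a MOB family kinase adaptor (chromosome 10, 80695228 to 80695536, fold 14.4, 29 fragments), where an anti-Helios summit lay 152 bp away, just past the limit that defines the class. Znrf3, an E3 ligase that removes Wnt receptors (chromosome 11, 5299547 to 5299702, fold 14.1), also had an anti-Helios summit nearby, at 450 bp. Grk2, a kinase that desensitises G protein-coupled receptors (fold 14.1, 28 fragments), had its nearest anti-Helios summit at 108 kb. The transcription factor genes Lef1 (chromosome 3, 131208571 to 131208852) and Zfp831 (chromosome 2, 174602352 to 174602660) both had a fold of 13.0 on 19 fragments. The retinoic acid receptor gene Rarg stood at 12.3, Ankrd44, a regulatory subunit of protein phosphatase 6, at 11.8, Gpr132 at 11.3, Def6, an adaptor and Rac exchange factor of T cells, at 11.3, and Dntt, the terminal transferase of antigen receptor rearrangement, at 11.2. Smad3, a mediator of TGF-beta signalling, had 10.8, the endocytic adaptor Eps15l1 had 10.4, and Rora, Dnm2 and Slc36a3 shared 10.4. These 16 are the 15 highest with a tie at the last place, and with 15 to 29 fragments the Poisson intervals of their fragments overlapped.

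Gene lists of T cell biology were then counted. What the host genes do was not part of the rule, but the lists were chosen with earlier results of these data known. The shares below are therefore a description and no independent support for a link to T cell genes. Of the 19300 protein-coding genes over 2 kb long, which can hold a member, 265 did (1.37%). Across 11 lists of T cell and signalling genes, 57 of 405 genes held a member (14.1%, 11 to 17.8), with 68 members in all, and 24 of the 405 stand in more than 1 list. The median length of these 405 genes was 48.0 kb, against 21.3 kb for all 19300. Of genes of other cells, 0 of 43 genes of the B cell, myeloid, CD8 and NK cell and erythroid lists (median length 14.6 kb) and 0 of 15 liver genes held a member. With 7 to 15 genes a list, the Wilson upper bounds of these 5 lists were 20.4% to 35.4%, so their shares could not be told from the 1.37% over all genes. Of 20 long neuronal genes (median length 1467 kb), only Magi2, a synaptic scaffold gene, did, with a fold of 7.90 at 2.70 kb from a gene end. The share for these neuronal genes, 5% (0.888 to 23.6), could not be told from the 1.37% either. Whether a listed gene is expressed in these cells was not measured.

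Longer genes more often held a member. Among all 19300 genes, the share with a member went from 0.207% in the quintile of shortest genes (up to 7.18 kb) to 3.55% in the quintile of longest genes (from 65.0 kb). Per allowed length the densities from the shortest to the longest quintile were 85.2, 51.6, 54.2, 43.2 and 22.6 members per 100 Mb, and 29.8 over all. They fell, but not at every step, and the 85.2 rests on 8 members. On the same scale, with the number of members in brackets, costimulatory and inhibitory receptors held 675 per 100 Mb (5) and the Treg signature 545 (6). The interleukin-2 receptor, JAK-STAT and SOCS list held 360 (4), T cell receptor signalling 327 (14), homing and adhesion 252 (2) and T cell transcription factors 224 (11). Lipid kinases, phosphatases and mTOR signalling held 175 (6), chromatin regulators 117 (6), mRNA decay 41.5 (1) and the long neuronal genes 3.35 (1). Ubiquitin ligases and NF-kappa B signalling held 0. The order therefore differs from that of the shares of genes.

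**Figure D4:**
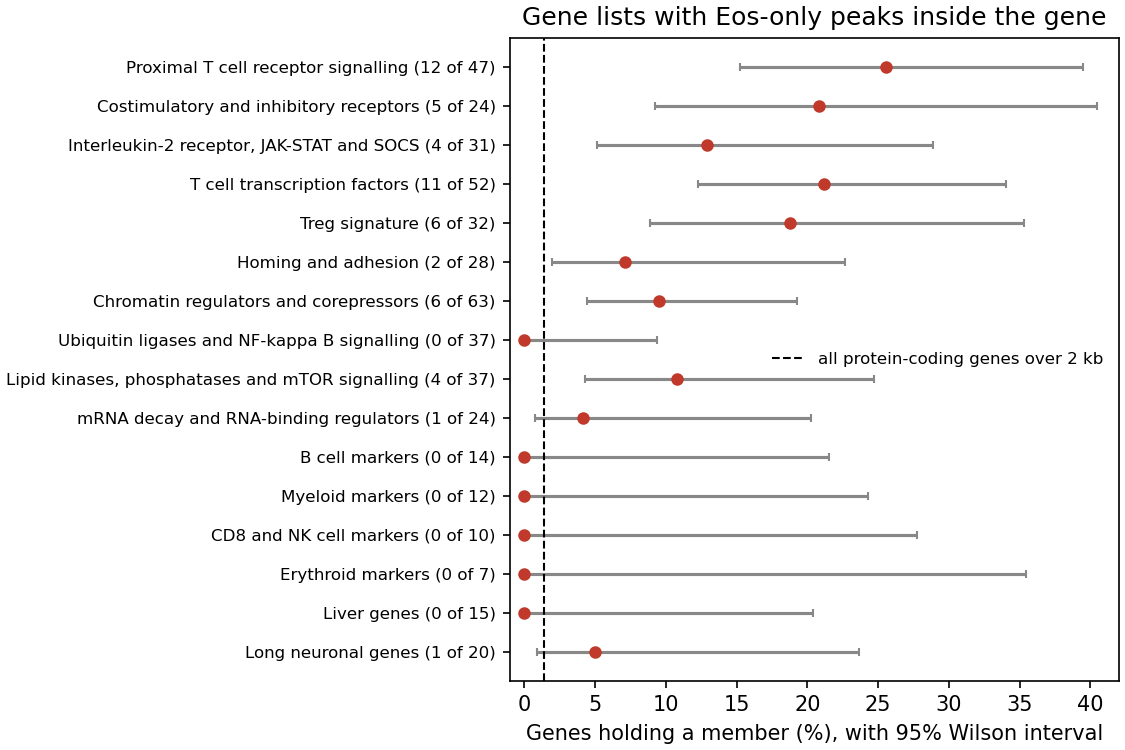
Share of the genes of each list shown that hold an Eos-only peak inside the gene (red points, %, horizontal axis) with its 95% Wilson interval (bars), with the number of genes in brackets, and the share over all protein-coding genes over 2 kb (dashed line, 1.37%). Proximal T cell receptor signalling lies highest at 25.5%, and the lists of B cell, myeloid, CD8 and NK cell, erythroid and liver genes are at 0.

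Proximal T cell receptor signalling had the highest share, 12 of 47 genes (25.5%, 15.3 to 39.5). On the activating side, peaks lay in Cd247, the zeta chain of the receptor (chromosome 1, 165845103 to 165845300, fold 9.08, 13 fragments), in the Src family kinase Fyn (6.57) and in the adaptor Nck2 (8.43). Calcium release and entry were represented by Itpr1, the inositol trisphosphate receptor (9.26, 17 fragments), and Stim1, the calcium sensor of the endoplasmic reticulum (3.92, 14 fragments over a background of 2.83). Prkcq, the protein kinase C theta of the immune synapse, held peaks of 7.46 and 9.08. Among genes that limit the signal, peaks lay in Ubash3b, a phosphatase that acts on ZAP-70 (8.75), Ptpn22 (7.56), Ptpn6, which encodes SHP-1 (6.57), Csk, the kinase that inhibits Lck (5.15), and Dgkz, a kinase that removes diacylglycerol, with peaks of 4.44 and 6.45. The list thus held members on both sides of the pathway.

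Surface receptors and cytokine signalling followed. Of 24 costimulatory and inhibitory receptors, 5 held a member: Tnfrsf1b, the TNF receptor 2 of Treg cells (8.23, 15 fragments), Slamf1 (5.71, 8 fragments), Icos (5.54, 15 fragments), Cd2 (5.32) and Slamf6 (4.18). Of 31 genes of the interleukin-2 receptor, JAK-STAT and SOCS list, 4 did. Il2ra, the CD25 chain used to isolate these cells, held a peak at chromosome 2, 11653431 to 11653668, with a fold of 7.27 on 20 fragments, 10.8 kb from the nearest gene end. Jak1 had a fold of 9.09, Stat4 one of 7.03, and the survival gene Mcl1 one of 7.5 at an internal start with 22 fragments over a background of 2.07. Among 32 Treg signature genes, 6 held a member, namely Tgfb1 (9.26, 14 fragments), Ikzf4, Il2ra, Ikzf3, Icos and Nt5e, which encodes CD73 (5.15, 9 fragments). Foxp3 and Ctla4 were not among them.

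Eos-only peaks lay inside genes of the Ikaros family itself. Among 52 T cell transcription factor genes, 11 held a member (21.2%, 12.2 to 34.0), 3 of them Ikaros family genes. Ikzf4, the gene of Eos, held a peak at chromosome 10, 128637012 to 128637261 (fold 9.09, 17 fragments, interval 9.90 to 27.2). It lies in the gene that is floxed in the knockout, and the part of that allele in the peak was not tested. Ikzf1, the gene of Ikaros, held one at chromosome 11, 11726268 to 11726413 (8.78, 16 fragments), 5889 kb from the nearest anti-Helios summit, and Ikzf3, the gene of Aiolos, held one at chromosome 11, 98470254 to 98470400 (7.07, 13 fragments). The other members of the list were Lef1 and Rora, Bcl6, the repressor of follicular T cells (7.38), Gata3, the Th2 regulator (7.20), Notch1 (6.17), Runx1 (5.54), Ets1 (4.70) and Foxp1 (4.16). The peak in Ets1 overlapped an anti-Helios peak whose summit lay 118 bp away, and its background was 2.83 fragments.

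Regulators of chromatin and of lipid signalling made up the next groups. Of 63 chromatin regulators and corepressors, 6 held a member: the corepressor scaffold Sin3a (9.81), the NuRD remodeller Chd3 (9.78), the histone methyltransferase gene Setd1b (6.17), the methylcytosine dioxygenase Tet3 (6.05), the demethylase Kdm6b (5.20) and the deacetylase Hdac4 (4.63, 8 fragments). Of 37 genes of lipid kinases, phosphatases and mTOR signalling, 4 did: Inpp4b (8.43 and 7.71), Inpp5d, which encodes SHIP1 (6.70), Ppp1r16b (6.17 and 4.79) and the mTORC1 subunit Rptor (5.89).

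Other lists held few members. Of 28 homing and adhesion genes, Itgb3 and the small GTPase Rap1a (5.35) did, and of 24 regulators of mRNA decay only Zc3h12a, the Regnase-1 nuclease gene (7.12). The share for mRNA decay, 4.17% (0.739 to 20.2), could not be told from the 1.37% over all genes. In the list of ubiquitin ligases and NF-kappa B signalling, 0 of 37 genes did, with a Wilson upper bound of 9.41%. That share could not be told from the 1.37% over all genes. An anti-Helios summit was found for 3 of the 37, against 2.06% of all genes with one in the gene or within 1 kb.

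Most host genes held 1 member, but 28 of the 265 held more, 64 members in all. With peaks of a -log10 q of 5 or more in both lists, 15 genes did. Septin9, a cytoskeletal GTPase gene, held 4, with folds of 7.07, 9.19, 5.15 and 6.17. The last 3 lay at 126.2, 126.8 and 127.3 kb from the lower end of the gene, and a coinciding peak followed at 134.6 kb (fold 8.75, anti-Helios fold 4.05). A long non-coding RNA gene, Gm34065, has an end 12 bp from the summit of the last of them. Genes with 3 members were Arhgef10, a guanine nucleotide exchange factor gene (5.66, 4.85 and 9.09), Thada (8.19, 6.61 and 8.47), Spata13, an exchange factor for Rac and Cdc42 (6.58, 6.27 and 7.72), Tex14, Mid1 and Sfi1. In the 28 genes, the closest pair of summits was within 1 kb in 5 and within 10 kb in 16, with a median of 7.30 kb. The shortest distance was 359 bp, in Ywhaz, which encodes a 14-3-3 protein (6.79 and 5.64), and the longest 122 kb, in Arhgef3, a further exchange factor gene (5.46 and 10.0). Close pairs also lay in Mllt10, a chromatin reader gene (8.67 and 6.07, 436 bp apart), in the tetraspanin gene Cd53 (5.15 and 6.17, 581 bp) and in Rcsd1, whose folds were low for this class (4.5 and 4.55, 664 bp). Itpkb, an inositol trisphosphate kinase gene, held members of 7.72 and 8.41 that were 26.2 kb apart, and Fam53b members of 9.85 and 7.12 that were 37.9 kb apart. In Kcnn4, a calcium-activated potassium channel gene, members of 6.57 and 5.27 stood beside a coinciding peak and an Eos-only peak near an end of the gene. Further genes with 2 members each were Asb2, Tbc1d22a, Osbpl3, Cyth3, Ext1, Prex1 and Akna. A total of 5 members lay in 2 overlapping genes at once.

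**Figure D5:**
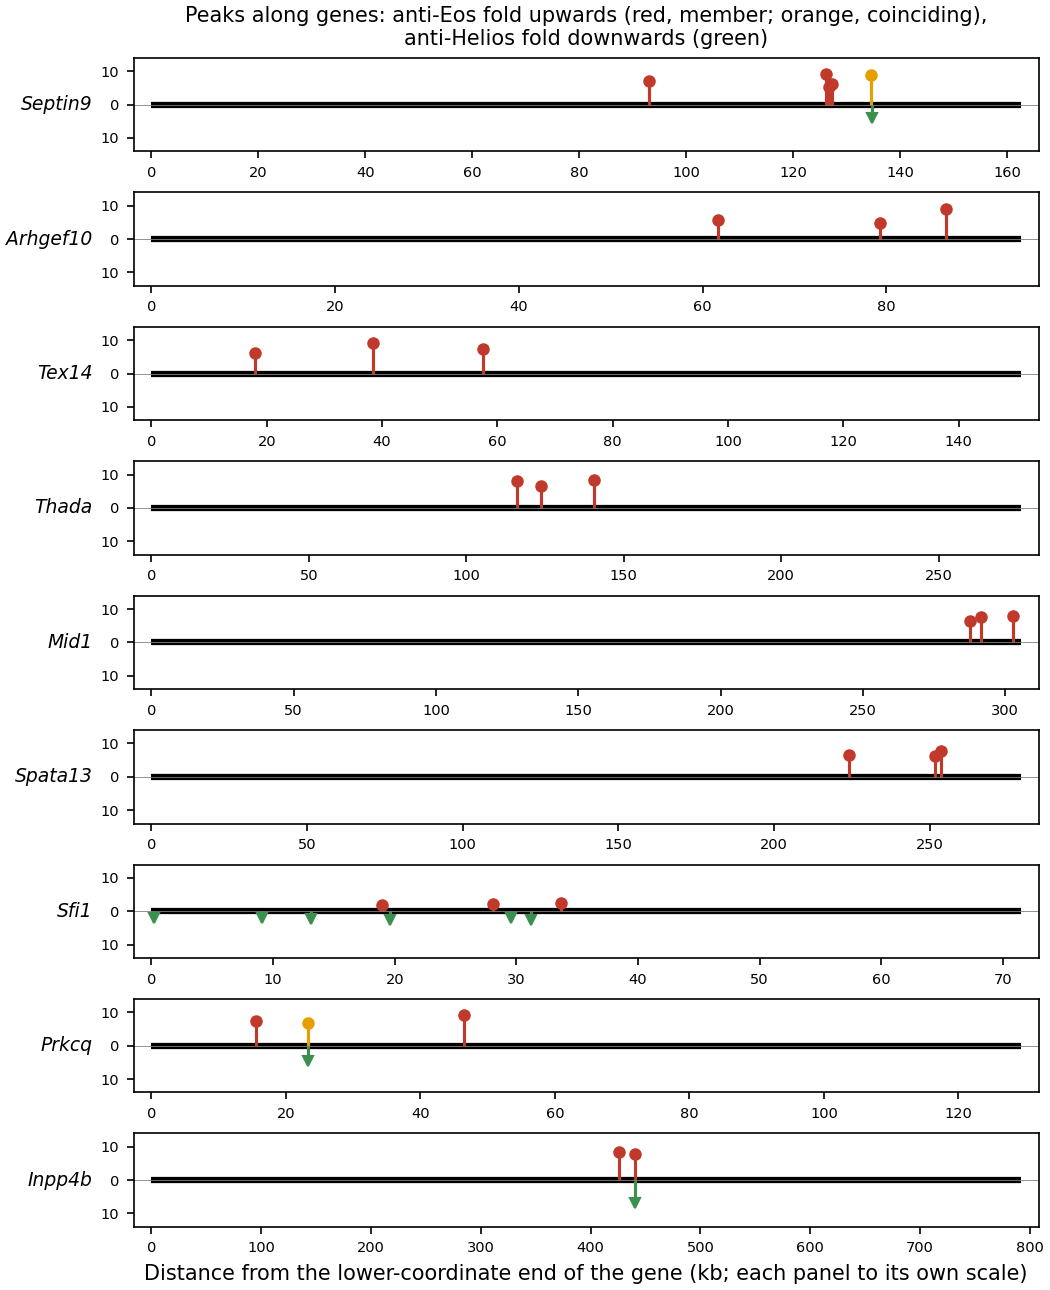
Positions of peaks along 9 genes (horizontal axis, kb from the end of the gene with the lower coordinate, each panel to its own scale), with the anti-Eos fold upwards (red for Eos-only members, orange for coinciding peaks) and the anti-Helios fold downwards (green). In Septin9 and Prkcq a coinciding peak stands near the members, in Inpp4b an anti-Helios summit lies beside the member with the fold of 7.71, and Sfi1 shows low folds for both antibodies.

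Some genes with 3 members stood apart by position or background. The 3 in Tex14, a gene known for germ cell bridges, had folds of 6.17, 9.08 and 7.20, and their summits lay 24, 38 and 20 bp from ends of the small RNA genes Rnu1a1, Rnu3b1 and Rnu3b4, which the table classes as small nuclear RNA genes. Such RNA genes are known to have near-identical copies, so these 3 peaks are uncertain in their placement. In Sfi1, a centrosome gene, the 3 members had the lowest folds of all 296 (1.99, 2.16 and 2.57) on 61, 69 and 67 fragments, over a local background of 30.2, 31.4 and 25.5 fragments. The same gene had 6 anti-Helios summits with folds of 1.93 to 2.71, the nearest of them 655 bp from a member. In Mid1, a microtubule-associated ubiquitin ligase gene on chromosome X, the members stood at 6.37, 7.58 and 7.78, within 17.9 kb of a gene end. On the scale assumed above, local background exceeded 3 control fragments in 6 members (2.03%), the 3 in Sfi1 among them, and in 8 of the 79 coinciding peaks inside genes (10.1%).

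Anti-Helios summits were then located around the members, beyond the distance that the rule used. Within 1 kb of 20 members, within 10 kb of 38 and within 100 kb of 74 (25%) lay an anti-Helios summit, and the median distance was 737 kb. These distances were not summarised for other peaks or for the allowed gene length, so they describe the members only. The peak intervals themselves overlapped an anti-Helios peak in 13 members (4.39%), with summits 105 to 443 bp apart and folds of 4.61 to 14.4. The 5 of these with the highest folds were in Mob3a, Hnrnpf (9.37), Rgs3 (9.26), Hk1 (7.97) and Rhof (7.97). For these 13, the line between Eos-only and coinciding rests on the chosen summit distance.

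At the level of genes, 42 of the 265 hosts (15.8%, 11.9 to 20.7) also had an anti-Helios summit in the gene or within 1 kb of it, against 2.06% of all 19300 genes. Counting only anti-Helios summits more than 1 kb from every member left 29 hosts (10.9%). A coinciding peak in or near the same gene was found in 20 hosts (7.55%), against 237 of all 19300 genes (1.23%). That count is not limited to the 79 coinciding peaks inside genes and takes in coinciding peaks near gene ends. A further Eos-only peak near an end of the same gene was found in 16 hosts. The share of all 19300 genes with such a peak was not counted, so whether 16 is many cannot be said. Host genes were long, with a median of 70.3 kb (interquartile range 29.4 to 132) against 21.3 kb (9.0 to 51.2) for all 19300, and the part of length in these shares was not tested. In Prkcq, the coinciding peak (fold 6.93, anti-Helios fold 4.51) lay between its pair of members, 7.68 kb from the nearer one. In Inpp4b, a lipid phosphatase gene of 792 kb, an anti-Helios summit with a fold of 6.98 lay 129 bp from the member with a fold of 7.71, while the other member was 15 kb away.

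Around both thresholds of the rule the folds of members and non-members overlapped. The members with the nearest anti-Helios summit were in Arhgef1 (105 bp, fold 4.61), Ssh2 (112 bp, 5.54) and Rgs3 (113 bp, 9.26), and the peaks just left out were in Ppm1h (98 bp, 9.26), S100a3 (96 bp, 11.5) and Cdh23, which overlaps Vsir (85 bp, 6.5). The members closest to a gene end were in Rap1a (1005 bp, 5.35), Lasp1 (1126 bp, 4.5) and Tbc1d10c (1162 bp, 7.07), and those just left out were in Tox (934 bp, 7.36), Gm40469 (912 bp, 6.62) and Acss1 (867 bp, 10.7).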

How the data were processed

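The members, gene lists and motifs were chosen with earlier results of these data known, so no count here is independent support for a pattern. The authors deposited 1 narrowPeak list per wild-type library, called separately: per peak a ratio (fold over background), a -log10 p and -log10 q value, a score and the summit offset (another number). The deposited score is the whole part of 10 times -log10 q in the anti-Eos list. Per the submitters' processing notes, BWA 0.7.1, SAMtools 1.17, Picard, cutadapt 4.4 and deepTools 3.5.1 were used with mm10 and GRCm38.p6. The sources used here do not name the peak caller.

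Summits were placed on the RefSeq gene table of GRCm38.p6 (49939 genes, 21883 of them protein-coding) and its start table (32851 windows of 27025 genes, with no entries for 1 chromosome). That start table gave strand and internal starts; exons and introns were not assigned. Fragments were solved from fold and p as (fragments + 1)/(background + 1) and an upper Poisson tail; steps were tested on simulated data. Shares have 95% Wilson, differences Newcombe and fragments exact Poisson intervals (Python 3.11.15, SciPy 1.17.1, statsmodels 0.14.6). No test was run, as 1 library per group leaves no replicates. The design planned motif counts on a genome; none was given, so motifs were counted in start windows only, on both strands. Named were the 15 highest and 3 lowest folds, genes with 2 or more members, listed genes (up to 40) and the 3 peaks on each side of both thresholds; further listed genes and the sequences shown were picked after values were seen, and 12 listed genes of 2 kb or less could not hold a member. The count of 1 of the 17 gene lists is not reported here, although its genes are in the totals over lists.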

Additional observations from a re-analysis of the deposited data

How the results depend on the processing

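The rule was changed in 9 ways, 1 at a time: summit distances of 50, 200 and 500 bp, interval overlap, 2 and 5 kb from gene ends, peaks of both antibodies with a -log10 q of 5 or more, ends of non-coding genes included, and high-background peaks left out. The number of members ran from 215 to 314, host genes from 197 to 281 and listed genes with a member from 42 to 59, all within 1.5 times the values reported. With the stricter q, the median fold was 7.72 and 15 genes held 2 or more members. The share of members in the part of the gene next to its start was 18.6% with 2 kb and 13.9% with 5 kb kept from gene ends. Members in a start window numbered 14 with 5 kb and 15 without ends of non-coding genes. The median of fragments was 14 with the stricter q. Of 153 counts for single lists, 146 stayed within 1.5 times and 7 moved further; these were in lists with 6 or fewer genes holding a member. No paired analysis was possible because each group has 1 library. The few fragments per peak limit the precision of every fold.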
